A study of Mus musculus with 8 samples.

Results

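Genes of the unfolded protein response and the integrated stress response were examined in the livers of mice whose portal vein had been infused with 4-hydroxyphenylacetic acid (4-HPAA), a phenolic metabolite made by gut bacteria, or with normal saline. The set holds 44 of the 35975 genes in the count table. It was assembled by name around Creb3l2, which had one of the smallest p-values between the groups, and the question was whether other genes of the endoplasmic reticulum (ER) moved with it. Because Creb3l2 was picked from the comparison of 4-HPAA with saline, that comparison is given for the members as a description only.

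Whole liver RNA was sequenced from 4 C57BL/6 mice (C57BL/6J in the study's methods) that received normal saline and 4 C57BL/6 mice that received 4-HPAA, in both groups through a portal vein catheter for 2 weeks. The 4-HPAA pumps held 55 mM of the compound dissolved in normal saline. The mice of the study were bought at 8 to 10 weeks of age, had a catheter and pump placed by surgery and were housed singly afterwards, so every liver came from an operated animal. The labels give no sex for a library, but Y-linked transcripts summed to 152 to 180 CPM in every liver, as in males. The labels also do not say which mice shared a cage, litter or day. The p-values therefore measure the spread between these 8 livers. In whole tissue, fewer cells of a type and less RNA per cell cannot be told apart.

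The ER folds secreted and membrane proteins, and the hepatocyte is a professional secretory cell that releases most plasma proteins. When unfolded protein builds up in the ER, the sensors IRE1 (Ern1), PERK (Eif2ak3) and ATF6 induce chaperones, disulfide isomerases and the machinery that carries misfolded protein back to the cytosol for destruction. PERK also phosphorylates the initiation factor eIF2, and this arm, which amino acid starvation and other stresses share, is the integrated stress response with ATF4 as its transcription factor. Creb3l2 encodes BBF2H7, a relative of ATF6 in the OASIS family that sits in the ER membrane until the proteases S1P (Mbtps1) and S2P (Mbtps2) release its transcription factor domain, and that is best known for driving Sec23a and secretion in cartilage.

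Promoter sequences show motifs that some of the members shared. RefSeq windows from 250 bases before to 50 bases after the start site (GRCm38.p6) were found for 38 of the 44 members. The ER stress response element, a CCAAT box followed after 9 bases by the letters CCACG, which ATF6 binds together with the factor NF-Y, was searched on both strands, as were the motifs named after it. It was present in 9 of the 38 members (23.7%) and in 37 of the 27025 genes with a window (0.137%). Those 37 genes include the 9 members. The set was assembled by name from genes of this response. This share and those of the motifs below therefore describe the set and test nothing. The sites of 5 members are shown with their flanking bases, written in the direction of the element with its fixed letters in capitals, because these genes are the chaperones and the isomerase that the results below turn on. Site positions are chr2:34772020-34772048 for Hspa5, chr10:86705528-86705556 for Hsp90b1 (the nearer of its 2 sites), chr11:50325795-50325823 for Canx, chr15:88819515-88819543 for Creld2 and chr12:17266486-17266514 for Pdia6. The genes Hspa5, Creld2 and Pdia6 are on the plus strand and Hsp90b1 and Canx on the minus strand, and the sites of Hsp90b1 and Creld2 run against their gene.
Hspa5: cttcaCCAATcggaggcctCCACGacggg
Hsp90b1: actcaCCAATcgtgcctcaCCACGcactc
Canx: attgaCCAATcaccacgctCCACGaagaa
Creld2: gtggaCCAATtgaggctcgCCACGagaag
Pdia6: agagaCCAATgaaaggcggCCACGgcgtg

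The first base of the element lay 65 bases before the start site in Hspa5. Calr, Dnajc3, Syvn1 and Derl3 held a match as well. A shorter variant, ERSE-II, in which ATTGG, the CCAAT box read on its opposite strand, is followed after 1 base by the letters CCACG, was found in Dnajb11 and Herpud1, which is 5.26% of the members and compares with 0.0444% of all genes. The ERSE-II of Herpud1, shown because this gene also had a match to the amino acid response element, lies at chr8:94386372-94386392 on the plus strand.
Herpud1: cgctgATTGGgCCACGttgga

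The amino acid response element TGATGCAA, which ATF4 binds with a C/EBP partner, was present in Herpud1 and Chac1 (5.26% of members, 1.03% of genes). The cAMP response element TGACGTCA, the kind of site that CREB3-family factors bind, was present only in Ppp1r15a among the 38 members (2.63%, against 2.03% of genes). No member window held TGACGTGG, a core of the unfolded protein response element that shares its first letters with the cAMP response element, and 0.714% of genes did. The Chac1 and Ppp1r15a sites are shown as the only ones of their kind beside that of Herpud1, at chr2:119351044-119351061 (gene on the plus strand, element on the other) and chr7:45526268-45526285 (gene on the minus strand).
Chac1: aggagTGATGCAAcggca
Ppp1r15a: tccggTGACGTCAgcaca

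Depth was even, with 29559978 to 30673398 estimated counts per library. Hepatocyte markers (Alb, Apoa1, Ttr, Cps1, Tat and Asgr1) summed to 97651 to 122437 CPM (counts scaled to a common library size) in saline and 91459 to 122224 CPM in 4-HPAA livers. Globin and other red blood cell transcripts ranged from 152 to 2560 CPM and were highest in saline 2 and 4-HPAA 4. Kupffer cell markers ranged from 66.7 to 247 CPM, and their sum overlapped between the groups. B and plasma cell markers, a cell type rich in ER genes, stayed between 2.13 and 4.49 CPM. Of the pancreatic acinar markers Prss2, Pnlip and Try4 were at 0 in every library, and the list of 9 summed to 9.38 to 15.5 CPM. Most of that sum was Cela1, at 7.83 to 14.2 CPM, followed by Cela2a at 0.515 to 1.07 CPM.

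Across all genes, no gene passed an adjusted p of 0.05 between 4-HPAA and saline in edgeR's quasi-likelihood test (0 of 12883 tested, 0%), while 225 genes (1.75%) had an unadjusted p under 0.05 and DESeq2 called 2 genes (0.0155% of 12868), Zfp36l2 and Ggnbp1, neither of them a member. Of the 44 members, 43 had 10 or more counts in every library and were tested. Asns was left out because of low counts in 4-HPAA 1. None of the 43 passed the adjusted threshold in either tool. One member, Creb3l2, had an unadjusted p under 0.05, and it was also the only one whose groups did not overlap, a pattern found in 154 of all genes (1.20%). The fitted log2 fold change was above 0 in 22 members and below 0 in 21, where 49.6% of all genes were below 0. The median over the tested members was 0.00089 on the log2 scale, beside 0.00071 over all genes tested. Without Creb3l2 it was -0.0016, and the 95% interval of each of the other 42 members included 0.

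**Figure D1:**
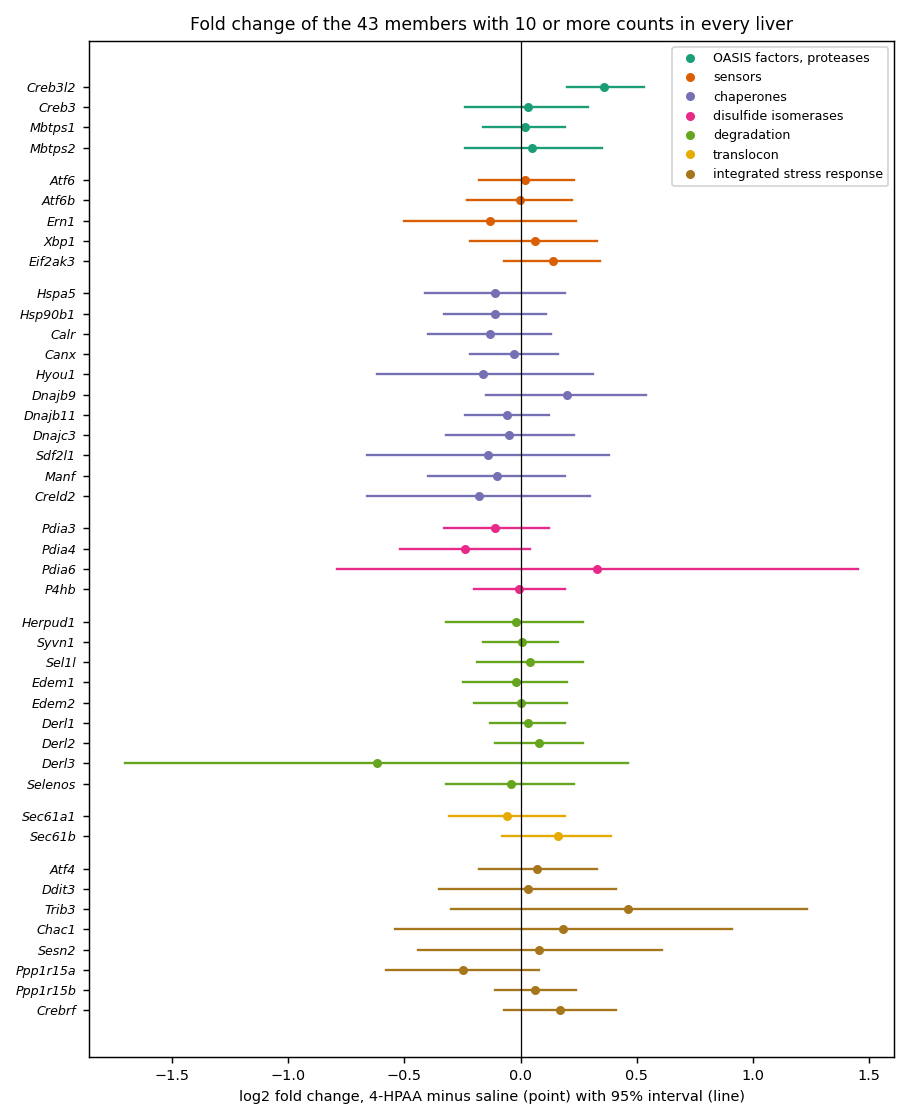
The log2 fold change of 4-HPAA minus saline is drawn for the 43 tested members as points with 95% intervals (lines), grouped and coloured by role. The interval of Creb3l2 lies between 0.20 and 0.53, those of the other 42 members include 0, and Derl3 and Pdia6 have the widest.

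Creb3l2 (ENSMUSG00000038648, chr6:37327255-37442146, GRCm38) stood at 15.0, 15.1, 15.1 and 14.9 CPM in the saline livers and at 21.1, 18.6, 19.8 and 17.8 CPM in the 4-HPAA livers. Every 4-HPAA liver lay above every saline liver, and the saline livers differed from each other by less than their 4-HPAA counterparts did. The saline libraries held 435 to 468 counts of the gene, and counting error on such counts would by itself give a wider spread than theirs. The means were 15.0 ± 0.0647 and 19.3 ± 1.47 CPM (SD, n = 4 each), and the log2 fold change was 0.36 with a standard error of 0.07. By unadjusted p the gene ranked 3 of 12883, and its adjusted p was 1.00 (edgeR, Benjamini-Hochberg). It is a low-abundance transcript of the liver, at 4.42 TPM (a level scaled by transcript length and library size). Its main protein-coding transcript carried 98.8% of the counts of the gene and had a log2 fold change of 0.37 (SE 0.09).

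The other transcription factor grouped with Creb3l2, Creb3, had 31.2, 27.8, 29.0 and 29.4 CPM in saline livers. In 4-HPAA livers it had 30, 24.7, 27.7 and 37.5 CPM. Its groups overlapped, with both the lowest and the highest liver in the 4-HPAA group, and the log2 fold change was 0.03 (SE 0.12). At 29.8 TPM it was the most abundant of this role. The protease genes that would process these factors had close means in both groups, with 60.3 ± 3.00 and 60.9 ± 4.77 CPM for Mbtps1 and 10.4 ± 1.40 and 10.7 ± 1.49 CPM for Mbtps2. The log2 fold changes were 0.02 (95% interval -0.16 to 0.19) and 0.05 (-0.24 to 0.35).

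Among the stress sensors and their transcription factors, 3 of 5 had fitted values above 0 and 2 below, with a median of 0.02 and a range from -0.13 to 0.14 on the log2 scale. Eif2ak3, which encodes PERK, had 10.2, 11.1, 12.5 and 10.5 CPM in saline and 12.0, 12.9, 11.4 and 12.5 CPM in 4-HPAA livers. Saline 3 lay among the 4-HPAA livers and the other saline livers below them, with a log2 fold change of 0.14 (SE 0.09). Ern1, which encodes IRE1, had 56.0, 82.8, 81.6 and 53.3 CPM in saline and 59.3, 72.7, 65.6 and 52.0 CPM in 4-HPAA livers (log2 fold change -0.13, SE 0.17). In both groups replicates 2 and 3 were high and replicates 1 and 4 low. The summed Kupffer cell markers had the same order in saline, with 86.2, 247, 158 and 73.9 CPM, and were 143, 196, 106 and 66.7 CPM in the 4-HPAA livers. Over the 8 livers, with each group's mean subtracted, Ern1 followed Clec4f, the defining Kupffer cell marker, with r = 0.89 (exact permutation p = 0.0312, adjusted over all genes 0.30) and Spearman's rho = 0.81 (p = 0.0174), and r was 0.80 without the 2 livers farthest from the median of Clec4f. An r of 0.8 or more with Clec4f was found for 1 of 43 members and 6.26% of all genes, and Clec4f was taken up as a reference after the values were seen. Xbp1 had the same rho with Clec4f (0.81, permutation p = 0.0174) and r = 0.71 (exact permutation p = 0.0764, adjusted over all genes 0.39). For the other sensors r with Clec4f was 0.48 (Eif2ak3), 0.04 (Atf6) and -0.36 (Atf6b). The part of Kupffer cell number in the Ern1 and Xbp1 values was not tested.

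Xbp1, the messenger that IRE1 splices, was the most abundant of this role at 135 TPM and had 124, 192, 174 and 152 CPM in saline and 172, 167, 164 and 163 CPM in 4-HPAA livers. The 4-HPAA livers lay close together inside the wider saline range, with means of 167 ± 3.97 and 160 ± 29.5 CPM (log2 fold change 0.06, SE 0.12). Splicing by IRE1 was not measured here. Atf6, the protease-activated sensor, had 85.8 ± 9.92 and 87.2 ± 5.31 CPM (log2 fold change 0.02, SE 0.09). Its relative Atf6b had 12.7 ± 0.816 and 12.6 ± 1.51 CPM, with 4-HPAA 3 apart at 14.9 CPM (log2 fold change -0.0042, SE 0.10).

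**Figure D2:**
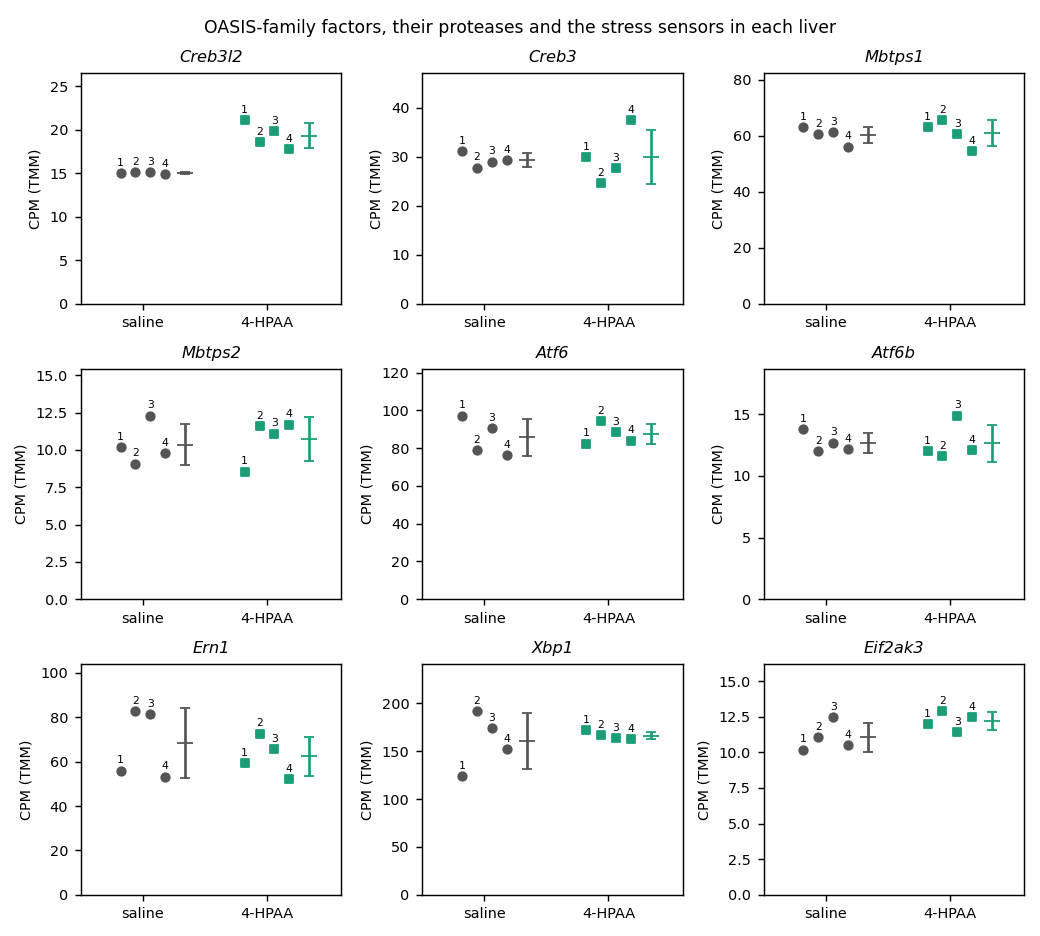
Each panel shows CPM (TMM-normalised, axis from 0) of a gene in the 4 saline livers (grey circles) and the 4 4-HPAA livers (green squares), numbered by replicate, with the group mean and SD as a bar. The 4-HPAA livers lie between 17.8 and 21.1 CPM for Creb3l2, above all saline livers, while the groups overlap in the other 8 panels and Ern1 is high in replicates 2 and 3 of both groups.

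Chaperones and cochaperones made up the largest role. Of its 11 genes, 10 had fitted values below 0 and Dnajb9 above 0, with a median of -0.11 and a range from -0.18 to 0.20 on the log2 scale. No member of this role reached an unadjusted p of 0.05. The genes were not independent of each other across livers, so the 10 signs do not count as 10 observations. Hspa5, which encodes BiP, the main chaperone of the ER lumen and the usual readout of the unfolded protein response, had 531, 398, 517 and 384 CPM in saline and 452, 440, 353 and 451 CPM in 4-HPAA livers. All 4-HPAA values but that of 4-HPAA 3 lay between the higher and the lower pair of saline livers, and the log2 fold change was -0.11 (95% interval -0.41 to 0.19).

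Calr, the calcium-binding lectin chaperone calreticulin, was the most abundant chaperone per length at 373 TPM, close to 370 TPM for Hsp90b1 (GRP94). It had 475, 438, 481 and 409 CPM in saline and 491, 431, 382 and 339 CPM in 4-HPAA livers. The 2 lowest livers were 4-HPAA 3 and 4, but 4-HPAA 1 was the highest of all, and the log2 fold change was -0.13 (SE 0.12). Dnajb9 (ERdj4), a BiP cochaperone that restrains IRE1, had 41.3, 44.2, 61.2 and 52.6 CPM in saline and 53.8, 51, 50.2 and 73.6 CPM in 4-HPAA livers. Its fitted value of 0.20 (SE 0.16) was the largest above 0 in the role, and 4-HPAA 4 was the highest of the 8 livers. Creld2, an ER stress-induced protein with disulfide isomerase activity, had the lowest fitted value, -0.18 (SE 0.22), from 26.7, 16.5, 29.2 and 15.8 CPM in saline and 16.8, 25, 17.2 and 19.1 CPM in 4-HPAA livers. Saline livers 1 and 3 were the highest of all 8 and saline livers 2 and 4 the lowest, so the spread within saline spanned the whole range.

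The 4 disulfide isomerases had a median of -0.06, with 1 above 0 and 3 below. P4hb (PDI itself) was the most abundant of all 44 members per length at 638 TPM and had means of 1119 ± 89.1 and 1115 ± 41.2 CPM, a log2 fold change of -0.0055 (95% interval -0.20 to 0.19). Pdia4 (ERp72) had 126, 109, 135 and 114 CPM in saline and 110, 122, 92.7 and 83.8 CPM in 4-HPAA livers. Livers 4-HPAA 3 and 4 were below all saline livers and 4-HPAA 1 and 2 among them, with a log2 fold change of -0.24 (SE 0.12) and an unadjusted p of 0.0803 (edgeR). Pdia6 (P5) had the widest spread of all members, with 6.83, 4.39, 12.5 and 13.0 CPM in saline and 13.0, 21.5, 8.38 and 3.32 CPM in 4-HPAA livers. Its within-group SD of 0.96 on the log2 scale was wider than that of 99.3% of genes, and its fitted value of 0.33 (SE 0.50) was -0.16 to 0.63 when single livers were left out. Its level was 9.62 TPM, beside 76.1 TPM for its paralog Pdia4. No 31-base stretch of its main transcript was shared with another annotated gene, but the 2686 transcripts not matched to a gene could not be compared, so the Pdia6 counts, and with them its level and spread, may be incomplete.

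Of the 9 genes of ER-associated degradation, which pulls misfolded proteins out of the ER for the proteasome, 5 had fitted values above 0 and 4 below, with a median of 0.00089. Herpud1, a scaffold of the ubiquitin ligase complex and one of the most abundant members at 473 TPM, had 606, 432, 478 and 522 CPM in saline and 580, 433, 452 and 539 CPM in 4-HPAA livers. The groups covered nearly the same range (log2 fold change -0.02, SE 0.13). Derl2, a rhomboid-like channel component, had the largest value above 0 (0.08, SE 0.09), from 71.0 ± 2.92 and 74.8 ± 8.04 CPM. Derl3, its stress-inducible paralog, had the largest value of any member in either direction, -0.62 (SE 0.48), but rested on 12 to 65 counts per library. It had 0.417, 0.755, 1.61 and 2.23 CPM in saline and 1.08, 0.934, 0.809 and 0.420 CPM in 4-HPAA livers. The saline livers enclosed the 4-HPAA livers, and the value was -0.91 to -0.19 when single livers were left out. Syvn1, the ubiquitin ligase HRD1, had 42.9 ± 2.65 and 43 ± 1.87 CPM.

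The translocon genes encode the channel through which new proteins enter the ER. Sec61b had 36.7, 28.2, 33.2 and 31.6 CPM in saline and 39.6, 33.4, 39.5 and 32.0 CPM in 4-HPAA livers, a fitted value of 0.16 (SE 0.11) with overlapping groups. Of its 31-base stretches 54.5% also occur in other genes and 48.7% in Gm10320, which had a mean of 0 estimated counts, so its level depends on how shared reads were assigned. Sec61a1, the channel itself, had 155 ± 21.7 and 149 ± 14.6 CPM (-0.06, SE 0.11).

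For the integrated stress response, 7 of the 8 tested genes had fitted values above 0 and Ppp1r15a below, with a median of 0.08 and a range from -0.25 to 0.46. None had an unadjusted p under 0.05. Atf4, its central transcription factor, which is controlled mostly at translation, had 51.1, 56.3, 54.3 and 51.8 CPM in saline and 56.6, 45.3, 54.6 and 68.1 CPM in 4-HPAA livers. The 4-HPAA livers held the lowest and the highest value, and the log2 fold change was 0.07 (SE 0.11). Trib3, a pseudokinase that ATF4 and CHOP induce, had 5.96, 4.08, 3.71 and 5.12 CPM in saline and 10.9, 5.94, 2.78 and 6.51 CPM in 4-HPAA livers. Its value of 0.46 (SE 0.34) came with a wide 4-HPAA range that enclosed all saline livers. Ppp1r15a (GADD34), the stress-induced subunit that lets eIF2 be dephosphorylated, had 16.1, 14.7, 11.7 and 10.6 CPM in saline and 13.0, 10.3, 9.71 and 11.6 CPM in 4-HPAA livers, a value of -0.25 (SE 0.15). Ppp1r15b, the constitutive counterpart, was more even at 129 ± 8.64 and 135 ± 7.73 CPM (0.06, SE 0.08). Ddit3, which encodes CHOP, the factor tied to death under ER stress, was low at 3.82 ± 0.572 and 3.91 ± 0.718 CPM (0.03, SE 0.17).

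Asns, asparagine synthetase and a textbook ATF4 target, had 0.866, 2.68, 0.623 and 4.77 CPM in saline and 0.209, 0.6, 0.809 and 12.9 CPM in 4-HPAA livers, which is 6 to 369 counts per library. A single liver, 4-HPAA 4, held most of the counts of its group, while the other 3 4-HPAA livers were below 0.866 CPM, the level of saline 1. Among further genes of the pathway, 4-HPAA 4 was also the highest of the 8 livers for Fgf21, the fasting hormone that ATF4 can induce, at 5.95 CPM against 0.4 to 2.92 CPM elsewhere, and for Atf5 at 145 CPM against 61.4 to 118 CPM. Other genes of the pathway were low in 4-HPAA 4. Slc7a5 was the lowest of the 8 livers there at 1.47 CPM, and Chac1 the lowest of the 4-HPAA livers at 3.60 CPM. All these genes were singled out after their values were seen. This liver was one of those with high globin counts, with 734 CPM of red blood cell transcripts against 152 to 163 CPM in the other 4-HPAA livers, whose part in these values was not tested.

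**Figure D3:**
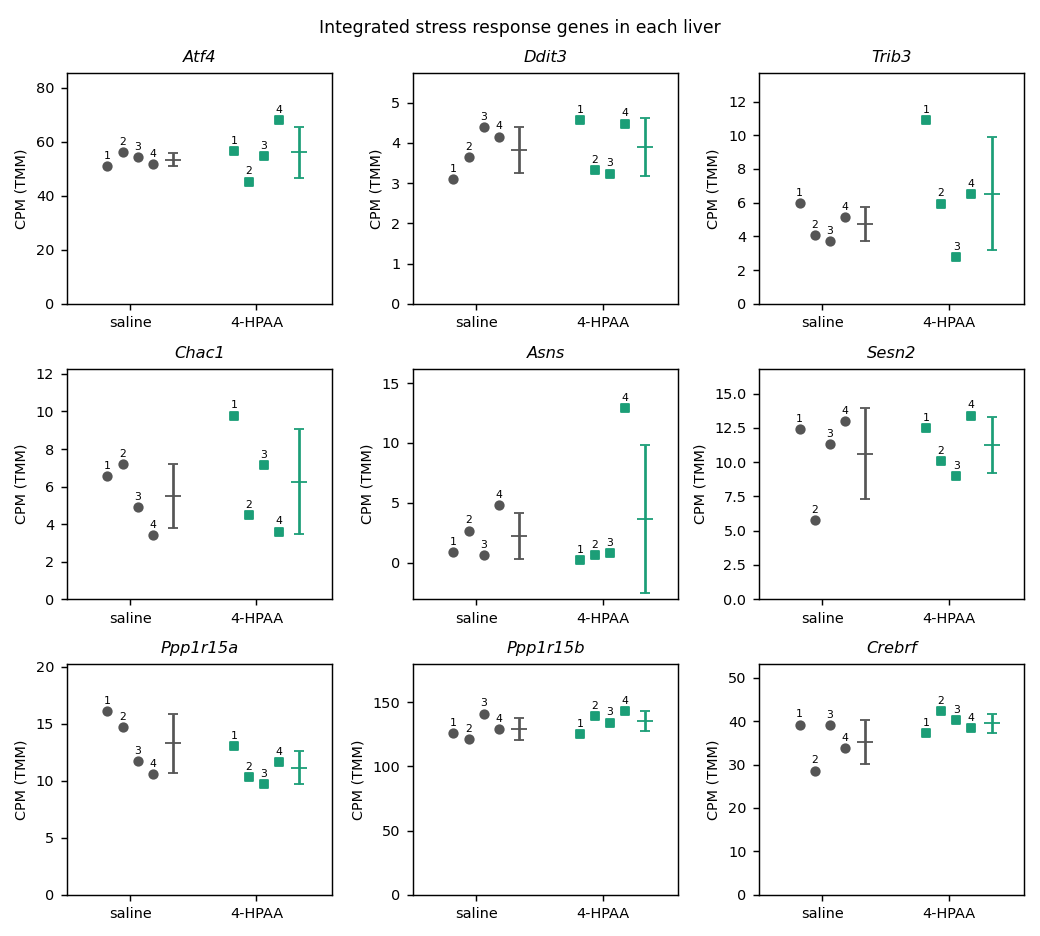
CPM of the 9 integrated stress response genes (TMM-normalised) in saline (grey circles) and 4-HPAA livers (green squares), numbered by replicate, with mean and SD as a bar. The groups overlap in all 9 panels, and Asns is at 12.9 CPM in 4-HPAA 4 and at most 4.77 CPM in the other 7 livers.

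Leaving out single livers did not bring a member past the adjusted threshold in edgeR. The count of members with an unadjusted p under 0.05 went from 1 to 2 without saline 1 (Derl3 added), without saline 4 (Ppp1r15a), without 4-HPAA 2 (Pdia4) or without 4-HPAA 3 (Trib3), and it was 1 when any other liver was left out. In those 4 fits 2.24%, 2.02%, 1.96% and 1.58% of all genes tested had such a p.

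Whether the members moved with each other was then asked within the groups, which does not draw on the difference between 4-HPAA and saline. Each gene's log2 CPM was taken relative to the mean of its own group, and Pearson's r was computed over the 8 livers with Hspa5, with Asns and with Creb3l2. The p-values come from exact permutation of the livers within groups, two-sided, for which the smallest possible p is 0.00174, and they were adjusted over all genes tested. No member passed an adjusted p of 0.05 with any of the 3 references. The cutoff of 0.8 used for counts was chosen after the values were seen.

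With Hspa5 as the reference, of the 42 members compared, 5 had an r of 0.8 or more (11.9%, against 0.869% of all genes), 35 had a positive r (83.3%, against 50.1%), and the median r was 0.44 (all genes 0.000679). The 5 were Manf, a secreted ER stress-induced trophic factor (r = 0.90), Sec61a1 (0.86), Hsp90b1 (0.82), the lectin chaperone Canx (0.81) and the mannosidase-like Edem2 (0.80). Their exact permutation p-values were 0.0156, 0.0417, 0.0434, 0.13 and 0.026, and every adjusted p was 1.00. Spearman's rho was 0.93, 0.88, 0.74, 0.74 and 0.88, with permutation p-values of 0.0122, 0.0243, 0.0972, 0.153 and 0.0243. Without 4-HPAA 3 and saline 1, the livers farthest from the median of Hspa5, r was 0.92 for Manf, 0.69 for Sec61a1, 0.71 for Hsp90b1, 0.81 for Canx and 0.55 for Edem2.

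The shared pattern can be read in the values. Manf had 35.4, 30.4, 38.9 and 24.9 CPM in saline, the same alternation of high in livers 1 and 3 and low in livers 2 and 4 as Hspa5. In the 4-HPAA livers it had 32.1, 32.0, 26.2 and 30.3 CPM, with 4-HPAA 3 lowest, again as for Hspa5. Hsp90b1 likewise had 690, 578, 718 and 642 CPM in saline and 637, 658, 547 and 597 CPM in 4-HPAA livers. The count of members at or above 0.8 depended on single livers. It was 2 without saline 3, 10 without 4-HPAA 4 and 11 without both livers with high globin counts, saline 2 and 4-HPAA 4. The share of all genes is not given for these settings. An r of 0.8 is reached more easily with fewer livers, so the higher counts cannot be read as more shared movement.

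**Figure D4:**
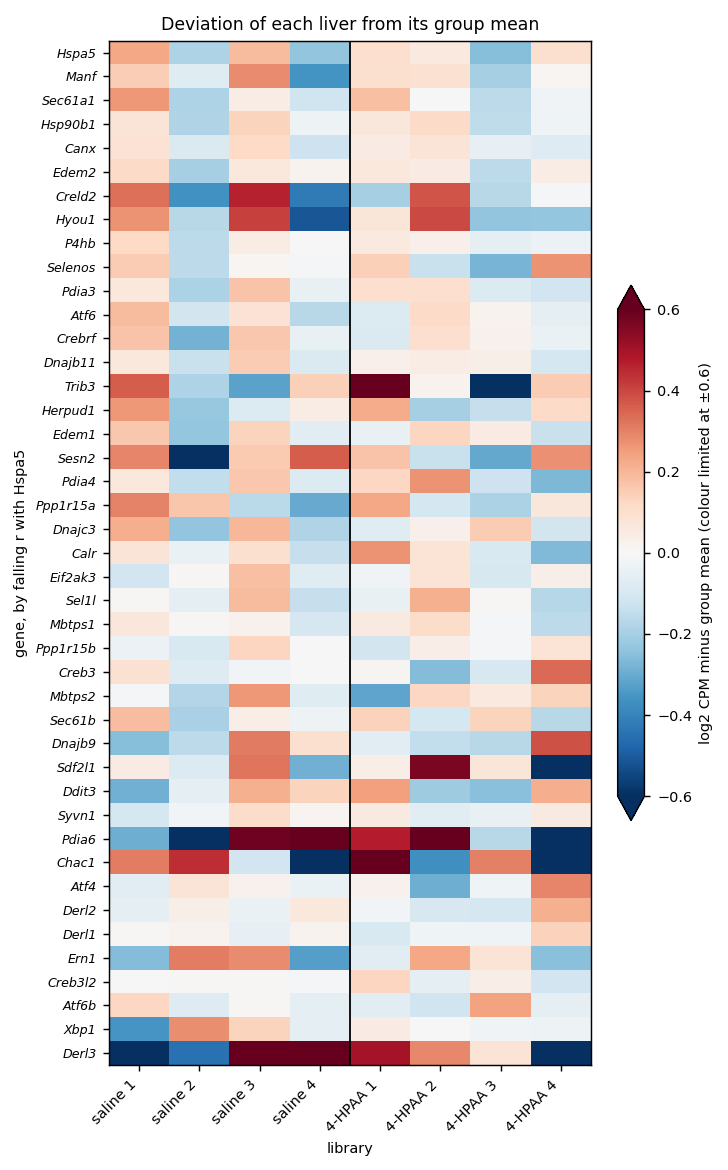
Rows are the 43 tested members, ordered from the highest to the lowest r with Hspa5 (itself on top), and columns are the 8 livers. Colour gives log2 CPM minus the mean of the liver's own group, red for higher and blue for lower, limited at 0.6 in either direction. The upper rows are mostly red in saline 1 and saline 3 and mostly blue in saline 2 and 4-HPAA 3, and the lower rows do not share this.

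The roles differed in how far they followed Hspa5, as a description over few genes each. The median r was 0.67 over the other 10 chaperones (range 0.22 to 0.90), 0.60 over the disulfide isomerases, 0.42 over the integrated stress response, 0.36 over ER-associated degradation (range -0.35 to 0.80), 0.30 over the OASIS factors and proteases and -0.06 over the sensors (range -0.34 to 0.64). The genes that share the ER stress response element with Hspa5 were found over almost the whole of this range, from 0.82 for Hsp90b1, 0.81 for Canx and 0.79 for Creld2 to 0.07 for Pdia6 and -0.35 for Derl3. Xbp1 was at -0.34 (permutation p = 0.531) and Creb3l2 at -0.10 (p = 0.939), with a rho of 0.02.

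Few members had a high r with Creb3l2 itself. Of 42 compared, 1 had an r of 0.8 or more (2.38%, against 1.27% of all genes), and the median r was 0.08 (all genes 0.02). That gene was Chac1, an ATF4 target that degrades glutathione, with r = 0.82 (exact permutation p = 0.0156, adjusted 0.99) and rho = 0.79 (p = 0.059). Chac1 had 6.54, 7.2, 4.89 and 3.40 CPM in saline and 9.78, 4.50, 7.15 and 3.60 CPM in 4-HPAA livers. Livers 4-HPAA 1 and 3 were highest in both genes within their group, and r was 0.38 without them. The next members by r were Calr (0.72), Sec61b (0.66), Mbtps1 (0.46) and then Pdia6 and Derl3 (both 0.36). In the opposite direction, Derl1 had r = -0.85 (exact permutation p = 0.066, adjusted 0.99), rho = -0.76 (p = 0.0312) and r = -0.93 without 4-HPAA 1 and 3. The protease gene Mbtps2 had -0.65 (exact permutation p = 0.0556) and Ppp1r15b -0.63 (p = 0.0469), each with an adjusted p of 0.99, and these were 0.09 and -0.10 without those livers. Because the saline livers hardly varied in Creb3l2 (SD 0.0647 CPM, less than counting error would give), these values reflect mainly the 4 4-HPAA livers. Leaving out 4-HPAA 1 and 3 keeps only 4-HPAA 2 and 4 in their group, whose deviations then mirror each other. Each r without 4-HPAA 1 and 3 therefore rests mainly on the difference between 4-HPAA 2 and 4. It cannot show whether a relation holds or fails. The count of members at or above 0.8 was 0 without 4-HPAA 1 and 2 without saline 1, saline 2, 4-HPAA 3 or 4-HPAA 4. The share of all genes is not given for these settings.

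Over all genes the closest to Creb3l2 were Elavl3 (r = 0.971), Gm28661 (0.967), Rapgef3 (0.966), Fam161a (0.963) and Vsig2 (0.961), over the 8 livers with group means subtracted. None of these is a member, and each had an adjusted p of 0.99 by exact permutation.

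**Figure D5:**
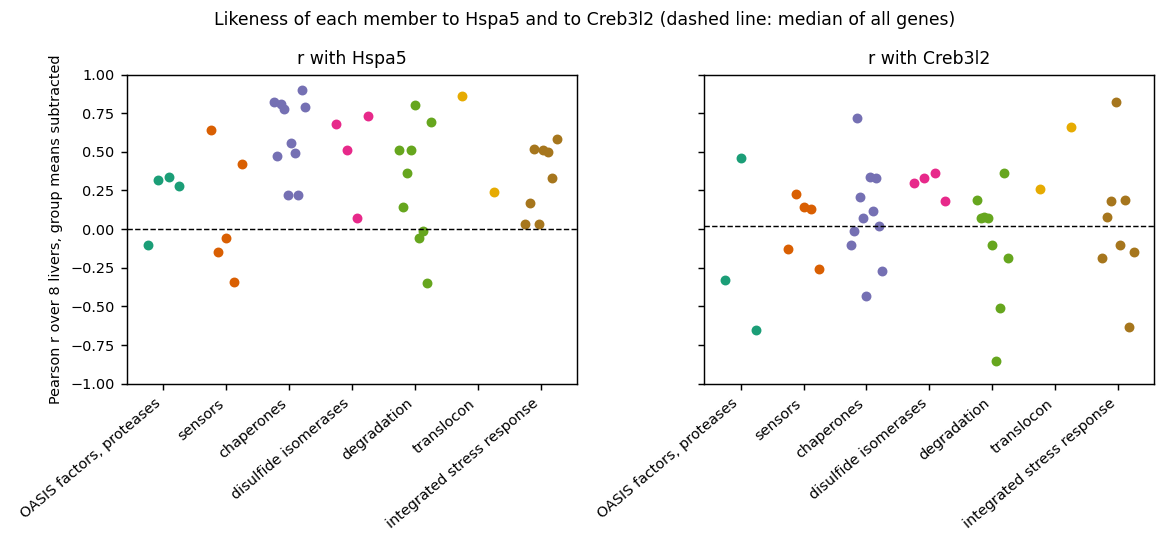
Each point is a member's Pearson r over the 8 livers, group means subtracted, with Hspa5 (left) and with Creb3l2 (right), by role. The dashed lines mark the median over all genes, 0.000679 and 0.02. Chaperones lie between 0.22 and 0.90 with Hspa5 and on both sides of 0 with Creb3l2.

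With Asns as the reference, 2 of 43 members had an r of 0.8 or more (4.65%, against 4.00% of all genes), and the median r was -0.38 (all genes -0.05). The 2 were the derlins Derl1 (r = 0.94, exact permutation p = 0.00694, adjusted 0.40) and Derl2 (0.85, p = 0.0434, adjusted 0.44), followed by Creb3 and Atf4 (both 0.60) and Dnajb9 (0.51). Derl1 was at 108, 109, 104 and 109 CPM in saline and 103, 108, 108 and 121 CPM in 4-HPAA livers, highest in 4-HPAA 4 as Asns was. Of its 31-base stretches 9.09% also occur in Gm35638. In the opposite direction, Calr had r = -0.93 (p = 0.00347, adjusted 0.37), lowest in 4-HPAA 4 and next lowest in 4-HPAA 3. Without 4-HPAA 4 and saline 4, the livers farthest from the median of Asns, r was 0.87 for Derl1, 0.05 for Derl2, -0.07 for Atf4 and -0.86 for Calr. Without 4-HPAA 4 alone no member reached 0.8.

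Of 127 further genes of these pathways, 119 were in the annotation and 111 were tested. None passed the adjusted threshold in edgeR, 1 had an unadjusted p under 0.05, and 64 had fitted values above 0 and 47 below, with a median of 0.01 on the log2 scale. That gene was Ddit4 (REDD1), an inhibitor of mTOR signaling, with a value of -1.06 (SE 0.44, unadjusted p = 0.037), which came from saline 1 at 90.8 CPM while the other saline livers had 22.8 to 29.4 CPM and the 4-HPAA livers 13.7 to 26.9 CPM. Of the 111 tested genes, 0 had groups that did not overlap, against 1.20% of all genes tested. Slc7a11, the cystine transporter, was too low to be tested. Its groups did not overlap in CPM, at 0.206 to 0.426 CPM in saline and 0.433 to 0.490 CPM in 4-HPAA livers. The saline libraries held 6 to 13 counts of it and the 4-HPAA libraries 13 to 14. The counts themselves met at 13, and the gap came from the scaling to library size.

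Among the relatives of Creb3l2, the liver-enriched Creb3l3 (CREBH) was by far the most abundant at 236 TPM, with 293 ± 26.6 and 308 ± 34.1 CPM and a log2 fold change of 0.07 (SE 0.10). Creb3l1 and Creb3l4 were at 0.245 and 0.266 TPM and were not tested. Sec23a, the coat protein gene best known as a target of BBF2H7, had 101, 86.3, 101 and 93.7 CPM in saline and 91.9, 105, 107 and 111 CPM in 4-HPAA livers. The groups overlapped, with 4-HPAA 1 among the lowest, and the value was 0.12 (95% interval -0.07 to 0.31). The 15 tested genes of this list had a median of 0.03, the 23 other folding genes -0.01, the 20 other degradation genes 0.02, the 19 other translocation and signal peptide genes 0.02, and the 34 other integrated stress response genes 7.4e-05.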

How the data were processed

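Livers of 4 saline-infused and 4 4-HPAA-infused mice were sequenced as paired-end reads of 100 bp. The authors checked reads with FastQC 0.11.9, pseudo-aligned them with kallisto 0.46.0.4 to GRCm38.p6 transcripts and deposited estimated counts per transcript and library, neither normalized nor pooled. Reads that fit several transcripts are shared among them, so near-identical genes are uncertain. Columns without a sample numbered 0.

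Of 119414 transcripts, 116728 were matched to GENCODE M21 genes (GRCm38) and 2686 were not. Estimated counts were summed per gene and rounded. A gene entered the fit if each library held 10 or more of its counts. The fit was edgeR 4.0.16 in R 4.3.3, with TMM factors, quasi-likelihood F tests and Benjamini-Hochberg adjustment over all genes. DESeq2 1.42.0 was an alternative. CPM are TMM-normalised, log2 CPM used a prior count of 2, and TPM were computed here from the counts and transcript lengths. Standard errors were derived from each fold change and its F statistic. Counting error weighs most near 10 counts.

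Members and lists were chosen with earlier results of these data known. Genes were named by a fixed rule: Creb3l2, every sensor, the most abundant member and the 2 with the largest absolute fold change of each role, members or pathway genes with an unadjusted p under 0.05 or groups that do not overlap, and the 5 most alike to each reference. Others, chosen for likeness or marked in the text, were added after their values were seen. Correlations were to be adjusted over the members and were adjusted over all genes instead. For Asns, under the count minimum, log2 CPM was computed with the same prior. The steps were tested on simulated data. Promoter sequences are RefSeq's. Replicate numbers come from the labels. Deviations from group means of same-numbered livers correlated across genes at 0.040, 0.168, 0.268 and 0.480. This does not settle whether the numbers pair the mice, and the main fit did not take them to.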

Additional observations from a re-analysis of the deposited data

Results flagged for a closer look

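In 6 of the 88 groups of 4 livers (44 members, each in saline and in 4-HPAA), a liver lay so far from the other 3 that the gap, divided by the range of the group, exceeded Dixon's 95% critical value, which chance gives in about 4.4 of 88 groups, or 1 in 20. All 6 were 4-HPAA livers. In 4-HPAA 4, Asns was at 12.9 CPM (others 0.209 to 0.809), Dnajb9 at 73.6 CPM (others 50.2 to 53.8) and Dnajb11, a BiP cochaperone, at 56.0 CPM (others 61.6 to 62.2). In 4-HPAA 3, Hspa5 was at 353 CPM (others 440 to 452), Edem2 at 40 CPM (others 45.9 to 46.6) and Atf6b at 14.9 CPM (others 11.6 to 12.1). For Atf6b, the transcript Atf6b-202 had 23.6 estimated counts in 4-HPAA 3 and 0 in the other 7 livers, and the main transcript Atf6b-201 had 436 estimated counts there against 341 to 347 in the other 4-HPAA livers.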

How the results depend on the processing

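Over 15 other settings of the fit, all 645 fitted values of the members stayed within 1 SD of the spread between livers. Leaving out a single liver can move a group mean by only part of that SD. For those settings this outcome was therefore nearly fixed in advance. The sign differed from the reported value in 66 of the 645 values. Under every setting 16 members kept 1 sign, among them Creb3l2 (0.32 to 0.40), Hspa5 (-0.21 to -0.03) and Derl3 (-0.91 to -0.19). With DESeq2, 2 of all genes passed the adjusted threshold (edgeR 0), and leaving out single livers gave 0 to 1 in edgeR, the 1 without 4-HPAA 1. Members with an unadjusted p under 0.05 (1) were 1 to 2 when single livers were left out. The count of all genes at an unadjusted p under 0.05 was 225 (1.75% of those tested). It was 415 of 17770 genes with a minimum of 10 summed counts and 528 of 22597 with no filter, 2.34% in each. The replicate number as a block gave 0 genes at the adjusted threshold, 336 (2.61%) at the unadjusted one, 1 member at the unadjusted one and 0.36 for Creb3l2. Same-numbered livers were not treated as pairs in the main fit. The 4 correlations were 0.040, 0.168, 0.268 and 0.480, and 4 of the 8 livers correlated best with their own number in the other group. These values do not settle whether the same-numbered livers are pairs. Whether they shared a day or batch is not given in the sources used here.

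Members with r of at least 0.8 with Hspa5 (5) were 11 without saline 2 and 4-HPAA 4 and 2 to 10 when single livers were left out. With Asns (2), they were 1 by Spearman's rho, 1 with group means kept, 1 by total counts, 1 without the 2 farthest livers, 0 without saline 2 and 4-HPAA 4, and 0 to 3 without single livers. With Creb3l2 (1), they were 0 by rho, 0 with group means kept, 5 without the 2 farthest livers, 2 without saline 2 and 4-HPAA 4, and 0 to 2 without single livers. The share of all genes is not given for these settings, and an r of 0.8 is reached more easily with fewer livers. For Creb3l2 the 2 farthest livers were 4-HPAA 1 and 3, so only 4-HPAA 2 and 4 remained in that group. The cause of these changes in the counts was not tested. A term for Y-linked transcripts could not be fitted, since all 8 livers carried them (152 to 180 CPM). Counting error was not separated from the spread between livers, neither for Creb3l2 nor for low genes such as Derl3.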

Other observations

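Transcript Ddit3-203 of the CHOP gene had 7, 19.2, 16.2 and 4.93 estimated counts in the saline livers and was listed at 0 in all 4 4-HPAA livers, while the gene as a whole had 3.82 ± 0.572 and 3.91 ± 0.718 CPM (SD, n = 4 each). Of 36862 transcripts over 3 estimated counts in every saline liver, 6 (0.0163%) were at 0 in every 4-HPAA liver, and 19 of 35981 (0.0528%) showed the reverse. Of the 117 member transcripts over 3 in every saline liver, Ddit3-203 was the only such case. It made up 5.17% of the counts of Ddit3, and it was noticed after the values were seen.

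Pdia6 and Derl3, the members with the widest spread within groups, were high and low in much the same livers. With group means subtracted, r was 0.73 (exact permutation p = 0.0417, adjusted over all genes 0.78) and rho 0.79 (p = 0.0417), and r was 0.65 without saline 2 and 4-HPAA 4, the livers farthest from the median of Pdia6. An r as high with Pdia6 was found for 4.34% of all genes. This pair was chosen after the values were seen.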
